A study of Homo sapiens with 8 samples.

Results

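SLINKY is a long intergenic noncoding RNA (lincRNA) of chromosome 7. Its knockdown with siRNA #1 was compared with the non-targeting control (NTC) in A498 and 786-O, 2 established cell lines of clear cell renal cell carcinoma (ccRCC). The members were chosen by label, as the 2 libraries with siRNA #1 and the 4 NTC libraries, which are 6 of the 8 libraries of the series. The remaining 2 libraries, with siRNA #2, served for the values set beside them. Each line was represented by 2 NTC libraries and 1 library of each SLINKY siRNA, so the siRNA #1 libraries of the 2 lines were the replicates of each other. All cells, controls included, received siRNA with Lipofectamine 2000 at 50 nM. The labels give 16 h of transfection and call every siRNA a pool, whereas the study's methods describe 2 independent siRNAs against the first exon of SLINKY and a later time of RNA isolation. Of 22678 genes with a symbol, 7252 were tested, those with a locus span of 200 bp or more whose FPKM averaged 5 or more in the 6 libraries. FPKM counts the fragments of a gene relative to its length and to the mapped fragments of the library, so it is a level per length. Nothing in the labels says that the libraries came from separate cultures, so p-values measure the spread between these libraries.

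An siRNA is loaded into the RNA-induced silencing complex, where its guide strand pairs with a complementary RNA and leads to its cleavage. Short partial matches, mostly in 3′ untranslated regions, can also lower other transcripts, which is why separate siRNAs against one RNA are commonly compared. Whether such matches bear on the genes described here was not tested. Cyclin D1, the product of CCND1, activates CDK4 and CDK6, and these kinases phosphorylate the retinoblastoma protein in G1 phase and so release E2F factors for entry into S phase. In ccRCC, loss of VHL leaves hypoxia-inducible factors active, and CCND1, CA12 and ANGPTL4 are among the genes known to respond to them.

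The relative depth of the libraries, set to 1 for the second 786-O NTC library, ranged from 0.388 to 1. From 10.7% to 13.1% of the FPKM of a library fell on its top 10 genes. Renal epithelial and ccRCC markers were high in each library, with PAX8 at 39.2 to 48.1 FPKM, VIM at 2024 to 3039 and KRT8 at 450 to 701. CA9, a carbonic anhydrase that marks most ccRCC tumors, was at 0 to 0.559 FPKM, and PAX2 was at 1.06 to 1.84. NDUFA4L2 was not matched. Of 12 markers of immune, endothelial and fibroblast cells, PTPRC and CD3E were at 0 in every library and CD68 alone reached 5 FPKM on average, at 138 to 151 FPKM in A498. The sum of the 12 was 141 to 155 FPKM in the A498 libraries and 2.74 to 6.36 FPKM in the 786-O libraries.

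SLINKY, the targeted RNA, was lowered by siRNA #1 in both lines. In A498 its own entry was at 14.6 and 16.1 FPKM in the NTC libraries, 1.64 with siRNA #1 and 3.01 with siRNA #2. In 786-O, where the NTC libraries held it at only 1.45 and 1.39 FPKM, it was at 0.0569 with siRNA #1 and 0.594 with siRNA #2. Both siRNA #1 values lay far below both controls of their line. The reduction with siRNA #1 was 89.3% in A498 and 96.0% in 786-O, against 80.3% and 58.2% with siRNA #2. Summed with the 3 assembled entries that overlap it, the locus was reduced by 89.6% in A498 and 77.7% in 786-O with siRNA #1, and by 74.0% and 55.2% with siRNA #2. Over both lines the log2 fold change with siRNA #1, on log2(FPKM + 0.1), was -3.21, and the two-sided exact permutation test within lines gave p = 0.111, the smallest that its 9 arrangements allow.

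With siRNA #1, 50 of the 7252 genes fell and 8 rose in both lines together by limma on log2(FPKM + 0.1) with cell line as covariate and Benjamini-Hochberg adjustment. These are 0.689% and 0.110% of the genes tested. CCND1 was among those that fell. Without adjustment, 762 genes were below p of 0.05, of which 419 were lower and 343 higher. Each of the 50 genes lay below both NTC values of its line in A498 and in 786-O, and each of the 8 lay above them. The genes were called on these same libraries, so this separation is no further evidence, and it was not counted over all genes. The median log2 fold change of the 50 genes was -0.38 in A498 and -0.48 in 786-O. Of the 50, 42 moved further in 786-O, which was not counted over all genes. The test of a difference between the lines, given below, called none of the 50. The change from the NTC mean ranged between -49.6% and -14.9% in A498 and between -58.2% and -18.6% in 786-O. The median over all genes tested was 0.0021.

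**Figure D1:**
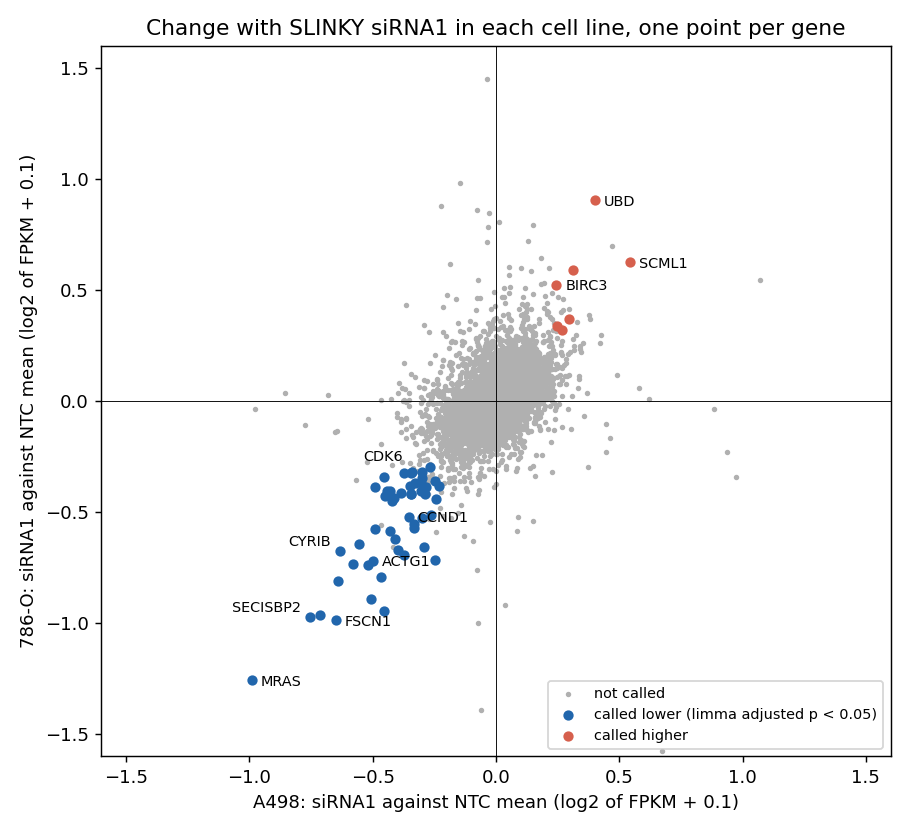
The change with siRNA #1 against the NTC mean in A498 (horizontal axis) and 786-O (vertical axis), in log2 of FPKM + 0.1, with 1 point per gene, blue for the 50 genes called lower and red for those called higher. The called genes sit at the ends of the cloud in the same direction in both lines, and 6 genes, TGIF2-RAB5IF and RMRP among them, lie outside the frame of 1.6.

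The 50 lower genes were spread over 20 chromosomes. On chromosome 7, which holds SLINKY, lay 6 of the 50, FSCN1, CDK6, DLD, LIMK1, TSC22D4 and CREB3L2, where 398 of all 7252 genes lay. Of the 50, 48 were protein coding, and 27 were the sum of several deposited entries. Neither was counted over all genes tested. Their median 3′ untranslated region was 1703 nt over 48 genes with an annotated one, beside 1502 nt over 7038 genes tested. The median level of the 50 was 22.2 FPKM, beside 19.5 FPKM over all genes. The count of calls was sensitive to the genes and libraries entered. It was 9 without the 786-O siRNA #1 library and 5 with genes of short span kept, while the sign of each of the 50 genes held in every fit that tested it. The split also moved, to 32 lower and 22 higher genes without the A498 siRNA #1 library. The signs could hardly have changed, so that they held is no further evidence. The 50 genes lay below both controls in both lines, and a filter on genes does not alter the fold change of a gene. The calls were not simply thinned out, since 2 of the 5 genes called with short spans kept, and none of the 13 called without the filter on low values, were among the 58.

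CCND1, which encodes cyclin D1, was measured from a single entry at chr11:69455873-69469242 of hg19. In A498 it was at 35.7 and 37.2 FPKM in the NTC libraries and at 28.5 FPKM with siRNA #1. In 786-O the NTC libraries were at 74.8 and 70.2 FPKM and the siRNA #1 library at 50.4 FPKM. The siRNA #1 library was thus the lowest of its line in both, with no overlap with the controls, which holds for each of the 50 lower genes. CCND1 thus fell by 21.8% in A498 and fell by 30.4% in 786-O. Over both lines the log2 fold change was -0.44 (SE 0.0589, 95% interval -0.57 to -0.31), with an adjusted p of 0.00841 by limma with Benjamini-Hochberg adjustment. The two-sided exact permutation test gave p = 0.111, again the smallest that 9 arrangements allow.

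The siRNA #2 libraries held CCND1 at 35.6 FPKM in A498 and at 70.5 FPKM in 786-O. Both values were at the level of the NTC libraries, and the log2 fold change with siRNA #2 was -0.035 (95% interval -0.15 to 0.084, limma adjusted p = 0.786). The direct contrast of siRNA #1 minus siRNA #2 was -0.40 (SE 0.0627, 95% interval -0.54 to -0.26, limma adjusted p = 0.0189). In these libraries CCND1 was therefore lower with siRNA #1 than with siRNA #2, in a contrast that uses the same siRNA #1 libraries as the call itself. That contrast has 1 library of each siRNA in each line, and its calls depended on the libraries and filters, as given at the end. The call of CCND1 against NTC was lost when the 786-O siRNA #1 library was left out, at a log2 fold change of -0.35. With the value unmoved at -0.44, the call was also lost when genes of short span were kept (limma adjusted p = 0.122) or genes of low level (0.405). With the replicate numbers as a further term CCND1 was at -0.45 (limma adjusted p = 0.0719). With these numbers crossed between the lines, a fit chosen after seeing the data, it was at -0.44 (limma adjusted p = 0.00162). The titles number only the NTC libraries, so the number of each siRNA #1 library was assumed in both fits.

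MRAS, a RAS-related GTPase that acts with SHOC2 and PP1C on RAF kinases, had the lowest p. It was at 12.2 and 12.4 FPKM in the 786-O NTC libraries, 5.08 with siRNA #1 and 12.1 with siRNA #2. In A498 it was at 2.48 and 2.49 in the NTC libraries, 1.20 with siRNA #1 and 2.34 with siRNA #2. The change with siRNA #1 was -49.6% in A498 and -58.2% in 786-O, while the siRNA #2 libraries were next to the controls. The log2 fold change was -1.12 (SE 0.0875, limma adjusted p = 0.000567). The precision of the A498 part is uncertain. The authors' 95% intervals of the 6 entries, combined as the root of summed squares, reached 1.56 FPKM to either side of the siRNA #1 value. That width treats the entries as independent.

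ADPGK and SECISBP2 fell by similar amounts and were not moved by siRNA #2. ADPGK, an ADP-dependent glucokinase, was at 12.7 and 12.6 FPKM in the A498 NTC libraries, 7.66 with siRNA #1 and 12.7 with siRNA #2. Its 786-O levels were 8.74 and 10.1 FPKM in the NTC libraries, 4.79 with siRNA #1 and 9.56 with siRNA #2. SECISBP2 encodes the protein that binds the SECIS element in selenoprotein mRNAs and so allows selenocysteine to be inserted. It was at 6.91 and 7.82 FPKM in the A498 NTC libraries, 4.32 with siRNA #1 and 7.64 with siRNA #2. In 786-O it was at 10.5 and 9.46, 5.03 and 9.74 FPKM in the same order. For both genes the siRNA #2 value lay within the NTC values in each line or next to them. The log2 fold changes with siRNA #1 were -0.84 for ADPGK and -0.86 for SECISBP2, each with a limma adjusted p of 0.0019.

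FSCN1, the actin-bundling protein fascin, was at 143 and 121 FPKM in the A498 NTC libraries, 84.0 with siRNA #1 and 111 with siRNA #2. In 786-O the levels were 103 and 116 FPKM in the NTC libraries, 55.1 with siRNA #1 and 106 with siRNA #2. In A498 siRNA #2 also lay below both controls, although less far than siRNA #1. The log2 fold change was -0.82 with siRNA #1 (limma adjusted p = 0.0044) and -0.67 for siRNA #1 minus siRNA #2 (limma adjusted p = 0.0337). ACTG1, cytoplasmic gamma-actin, was at 1668 and 1644 FPKM in the A498 NTC libraries and 1171 with siRNA #1, and at 3861 and 3726 against 2302 FPKM in 786-O. With siRNA #2 it was at 1578 and 3397 FPKM, a little below the controls. Its pseudogene ACTG1P20 moved with it, from 37.3 and 38.8 to 24.3 FPKM in A498 and from 85.5 and 82.6 to 47.9 FPKM in 786-O. Near-identical sequences share reads of 36 bp, so the division between these 2 genes is uncertain and they were read as 1 signal, with log2 fold changes of -0.61 for ACTG1 and -0.73 for ACTG1P20.

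**Figure D2:**
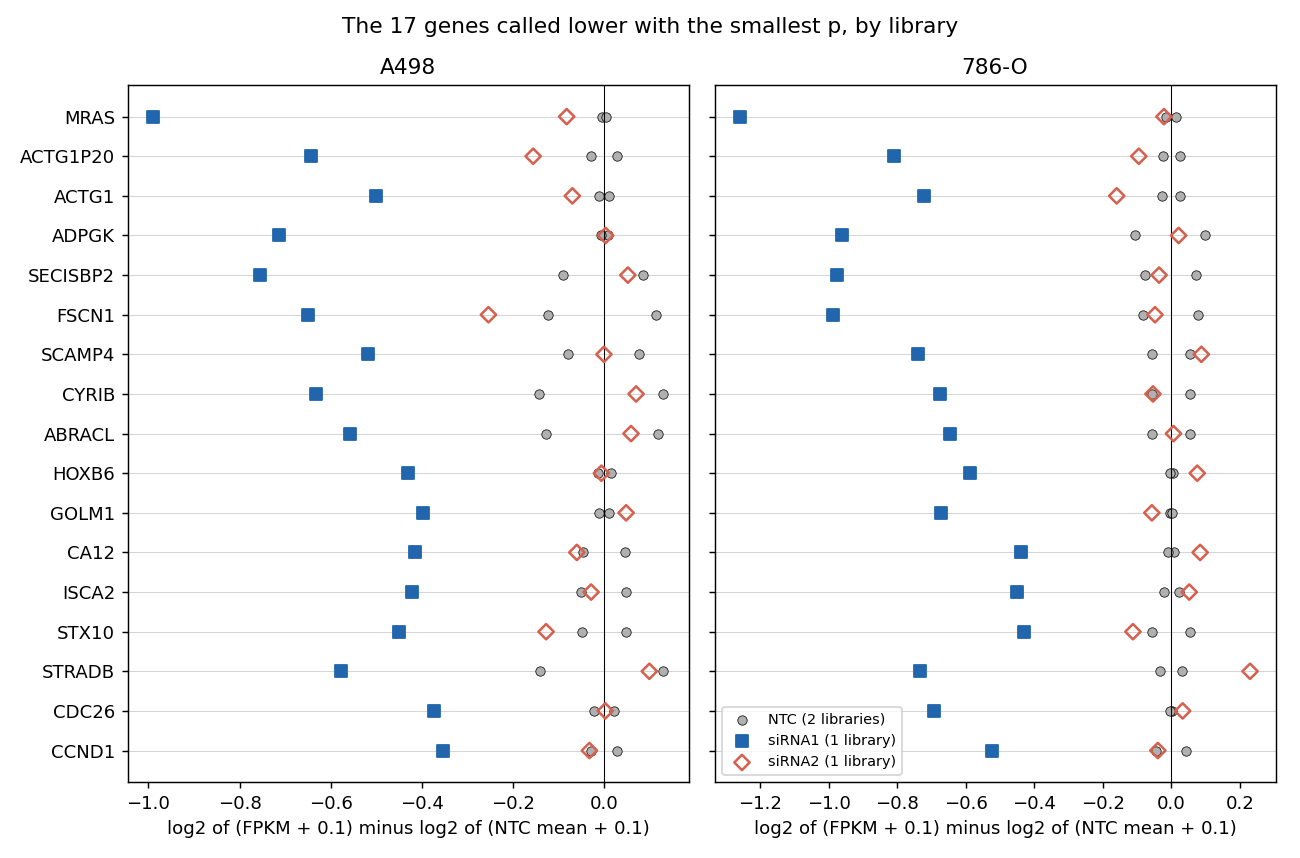
The 17 lower genes with the smallest p, with each library as log2(FPKM + 0.1) minus that of the NTC mean of its line, for A498 on the left and 786-O on the right (grey circles NTC, blue squares siRNA #1, open diamonds siRNA #2). Every siRNA #1 library lies left of both NTC libraries, while most siRNA #2 libraries lie near 0, with FSCN1 and ACTG1P20 in A498 and ACTG1 in 786-O a little lower and STRADB in 786-O higher.

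A further group of lower genes had siRNA #2 values within 1.1-fold of the NTC mean in both lines. CYRIB, which binds RAC1 and restrains its signalling to actin, went from 23.3 and 28.2 FPKM in the A498 NTC libraries to 16.6, and from 33.0 and 30.6 to 19.9 FPKM in 786-O. SCAMP4, a carrier membrane protein of secretory vesicles, went from 23.0 and 20.7 to 15.2 FPKM in A498 and from 18.0 and 19.5 to 11.2 FPKM in 786-O. GOLM1, a Golgi membrane protein, went from 54.9 and 55.7 to 41.9 FPKM in A498 and from 112 and 113 to 70.5 FPKM in 786-O. The siRNA #1 libraries of these 3 genes did not overlap with the controls, as in each of the 50 lower genes. ABRACL, a small protein linked to actin dynamics, fell by 0.60 on the log2 scale, from 57.8 and 68.5 to 42.9 FPKM in A498 and from 121 and 112 to 74.5 FPKM in 786-O. SWAP70, an actin-binding protein that acts with RAC, fell by 0.70 on the log2 scale, to 6.07 FPKM in A498 from 8.24 and 9.07 and to 3.15 FPKM in 786-O from 6.03 and 5.81. HOXB6, a homeobox transcription factor, fell by 0.51 on the log2 scale. In these 6 genes the limma adjusted p was 0.00489 to 0.00841, and the largest change with siRNA #2 in either line was 0.088 on the log2 scale.

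STRADB, a pseudokinase partner of the kinase LKB1, and SMCO4, a small membrane protein, differed in how siRNA #2 stood. STRADB was at 5.74 and 6.94 FPKM in the A498 NTC libraries and 4.21 with siRNA #1, and at 10.2 and 10.6 against 6.22 FPKM in 786-O. The interval of the first A498 NTC library, combined over entries as for MRAS, reached 7.90 FPKM to either side. With siRNA #2 STRADB was at 6.80 and 12.2 FPKM, at or above the controls, and siRNA #1 minus siRNA #2 was -0.82 (limma adjusted p = 0.00607). SMCO4 was at 8.36 and 9.85 FPKM in the A498 NTC libraries and at 18.6 and 17.6 in 786-O. It was at 6.44 and 12.1 FPKM with siRNA #1 and at 7.36 and 16.2 with siRNA #2, so that both siRNAs lay below the controls in both lines. For SMCO4 the siRNA #1 minus siRNA #2 difference was -0.30 and did not pass the test (limma adjusted p = 0.241).

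The lower genes outside the naming rule, listed after their values were seen, included ISCA2, STX10, CDC26, MMGT1, IFT43, ABHD17C, LMNA, PPIAP46, MYD88, TST, TMEM9B, TSC22D4, GPAT3, AIFM2, BRD8, H2AX, SCARB1, DPM2, DYNC1LI2, PPP3CA, GPX8, BIN3, DLD, MGAT4B, UBE2D3, RGS19, TSPAN5, LIMK1, PTP4A2 and CREB3L2. LMNA, the lamin A/C gene, has a deposited entry whose estimate failed in at least 1 library, and PPIAP46 is a pseudogene whose reads its parent gene can share. LMNA was also lower with siRNA #2 in A498, at 265 FPKM against 380 and 346 in the NTC libraries and 286 with siRNA #1. Of the 50 genes, 6 stayed below the threshold in each of the 6 fits that left out a library, namely MRAS, ACTG1P20, ACTG1, ADPGK, SECISBP2 and FSCN1.

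The 8 genes that rose were selected against the same NTC libraries that siRNA #2 is set beside, so values above these controls with both siRNAs are no independent evidence. WEE1, the kinase that holds CDK1 inactive before mitosis, was at 11.3 and 11.5 FPKM in the A498 NTC libraries, 14.2 with siRNA #1 and 16.1 with siRNA #2. The 786-O levels were 8.37 and 7.39, 11.9 and 10.7 FPKM in the same order. SCML1, a polycomb-related protein, rose from 2.76 and 2.58 to 3.94 FPKM in A498 and from 9.33 and 8.28 to 13.6 FPKM in 786-O, with siRNA #2 at 3.89 and 11.6 FPKM. The authors' 95% intervals of the SCML1 entries, combined as the root of summed squares, reached 3.46 FPKM to either side in the second A498 NTC library. In the second 786-O NTC library they reached 9.32 FPKM, and both widths exceed the values themselves. In WEE1 and SCML1 both siRNAs lay above both controls in both lines, and siRNA #1 minus siRNA #2 was -0.0091 and 0.12, with limma adjusted p of 0.983 and 0.693. BIRC3, an inhibitor of apoptosis induced by NF-kB, rose from 23.8 and 25.1 to 29.0 FPKM in A498 and from 16.7 and 16.6 to 23.9 FPKM in 786-O, and was at 30.0 and 21.5 FPKM with siRNA #2. Its interval, combined over entries in the same way, reached 12.3 FPKM to either side in the first 786-O NTC library.

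UBD, a ubiquitin-like protein induced by cytokines, rose from 16.9 and 16.7 to 22.2 FPKM in A498 and from 1.71 and 1.86 to 3.43 FPKM in 786-O, with siRNA #2 at 18.6 and 2.02 FPKM. ALDH1B1, a mitochondrial aldehyde dehydrogenase, rose from 24.5 and 26.0 to 30.0 FPKM in A498 and from 29.6 and 30.6 to 38.0 FPKM in 786-O. With siRNA #2 it was at 24.7 and 30.0 FPKM, within the controls. It was the gene among the 8 whose siRNA #1 minus siRNA #2 difference passed the test (0.31, limma adjusted p = 0.0428). NACC2, a BTB-domain transcriptional repressor, had a log2 fold change of 0.33, and SNX12, a sorting nexin, one of 0.29. For SNX12 the interval of the A498 siRNA #1 library, combined over entries, reached 58.9 FPKM around 45.5. TGIF2-RAB5IF, a read-through transcript that shares reads with its 2 parent genes, was at 2.54 and 1.69 FPKM in the A498 NTC libraries and 8.98 with siRNA #1, a value whose 95% interval reached 34.5 FPKM to either side.

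The contrast of siRNA #1 minus siRNA #2 was tested in all 8 libraries, and the NTC libraries enter it only through the spread. It found 42 genes lower with siRNA #1, which is 0.579% of the genes tested, and 11 higher, which is 0.152%, by limma with Benjamini-Hochberg adjustment, and 705 genes were below p of 0.05 without adjustment. Of the 42 lower genes, 31 were among the 50 that fell against the NTC libraries. Since both contrasts use the same siRNA #1 libraries, these 31 are not independent evidence. For siRNA #2 against NTC, limma called 4 genes, all lower, and 909 were below p of 0.05 without adjustment. None of the 50 lower genes was among those 4, and with only 4 of 7252 genes called this absence says little. Without adjustment, 9 of the 50 were lower with siRNA #2 at p below 0.05, beside 609 of all 7252 genes tested. ANGPTL4, CDK6, TMEM9B and DYNC1LI2, also of the 50, were higher with siRNA #2 at that level, beside 300 of all genes.

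By the fixed rule of less than 1.1-fold from the NTC mean in both lines, siRNA #2 did not move 25 of the 50 lower genes, beside 60.5% of all genes tested. These included MRAS, ADPGK, SECISBP2, SCAMP4, CYRIB, ABRACL, HOXB6, GOLM1, CA12, ISCA2, STX10, CDC26, CCND1, SWAP70, MMGT1, IFT43, ABHD17C, SCARB1, DPM2, GPX8, UBE2D3, TSPAN5, PTP4A2 and CREB3L2. Within this rule siRNA #2 still lay below both controls in both lines for MRAS, STX10 and IFT43, and above both for MMGT1 and GPX8. Over the 50, the median log2 fold change with siRNA #2 was -0.017 in A498 and -0.028 in 786-O, and 27 and 28 of them were below 0. The 50 were thus spread around the NTC level with siRNA #2, -0.46 to 0.33 in A498 and -0.25 to 0.70 in 786-O. Of the 8 higher genes, siRNA #2 did not move 2, ALDH1B1 and NACC2.

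The 19 lower genes without a called difference between the siRNAs included LMNA, LIMK1, TSC22D4, TST, NDRG1 and SMCO4, of which all but NDRG1 and SMCO4 were chosen after their values were seen. LIMK1, the kinase that inactivates cofilin, had a log2 fold change of -0.31 with siRNA #1 and -0.23 with siRNA #2, and their difference was -0.08 (limma adjusted p = 0.713). A p that misses the threshold does not show that the siRNAs act alike on these genes. In the opposite direction, the 11 genes higher with siRNA #1 than with siRNA #2 included some that siRNA #1 left near the controls. B4GALT7, a galactosyltransferase of proteoglycan linkers, was at 28.1 and 24.7 FPKM in the A498 NTC libraries, 23.0 with siRNA #1 and 11.4 with siRNA #2. In 786-O it was at 39.0 and 45.2, 42.4 and 16.6 FPKM in the same order, named here after its values were seen.

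**Figure D3:**
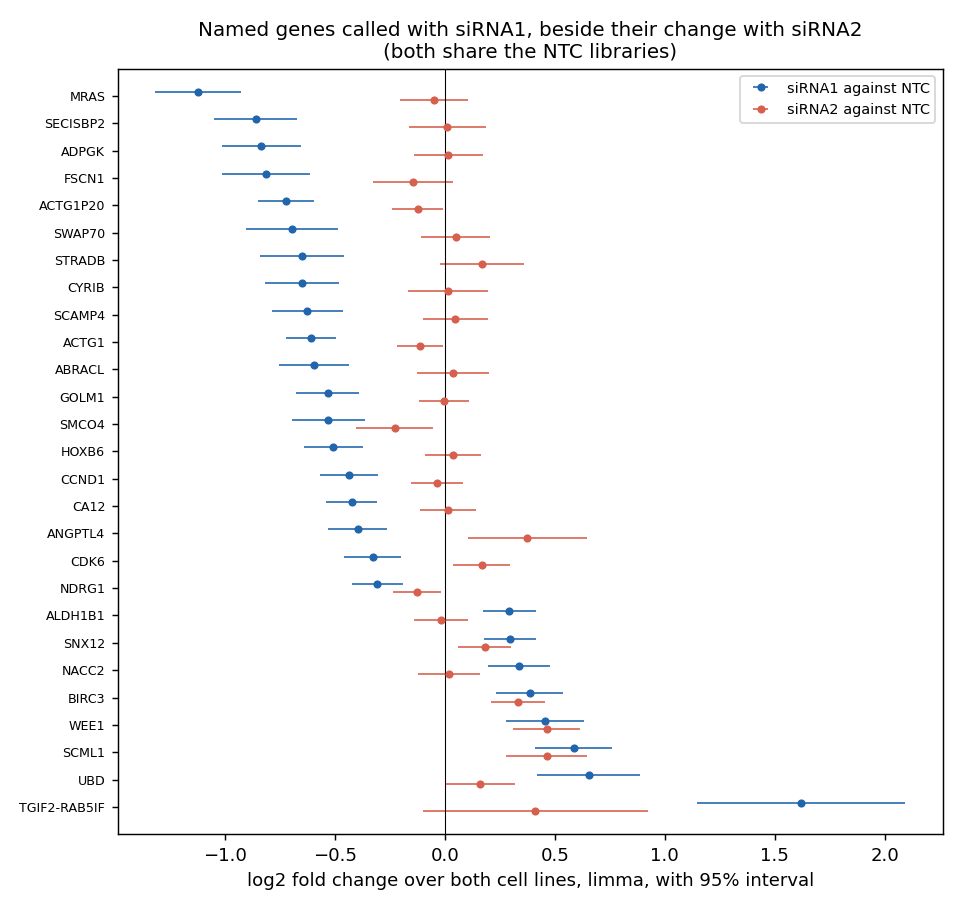
The log2 fold change over both lines with its 95% interval by limma, for siRNA #1 (blue) and siRNA #2 (red) against the same NTC libraries, for the 27 genes called with siRNA #1 that the naming rule covers, which were chosen on the blue values. The blue points of the 19 lower genes run from -1.12 to -0.31, and the red points of the same genes lie on both sides of 0, from -0.23 to 0.37.

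CDK6, a kinase partner of the D cyclins, was the other called gene of the list of D cyclins, their kinases, partners and inhibitors. In A498 it was at 6.32 and 6.43 FPKM in the NTC libraries, 5.01 with siRNA #1 and 7.31 with siRNA #2. In 786-O it was at 20.5 and 19.7 FPKM in the NTC libraries, 16.1 with siRNA #1 and 22.1 with siRNA #2. The siRNA #1 libraries lay below both controls and the siRNA #2 libraries above both controls in each line. The log2 fold change with siRNA #1 was -0.33 (SE 0.0578, limma adjusted p = 0.0302), and siRNA #1 minus siRNA #2 was -0.50 (limma adjusted p = 0.00607). The call against NTC was less firm than that of CCND1, since it held in 1 of the 6 fits without a library and reached a limma adjusted p of 0.664 in another.

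Of the 27 genes of this list, 16 were tested, and 2 fell, CCND1 and CDK6, while none rose, beside 0.689% lower and 0.110% higher of all genes tested. The median log2 fold change of the 16 was 0.016, beside 0.0021 over all genes tested. CDC25A, the phosphatase that activates CDK2, was at 6.21 and 6.22 FPKM in the A498 NTC libraries and 4.99 with siRNA #1, and at 13.1 and 13.1 against 11.9 FPKM in 786-O. It was the next lowest of the list at -0.22, which did not pass the test (limma adjusted p = 0.222). CDK4, the other kinase partner, was at 107 and 107 FPKM against 108 in A498 and at 160 and 173 against 159 in 786-O. CCND3, the second D cyclin tested, was at 140 and 132 FPKM in the A498 NTC libraries and 138 with siRNA #1, and at 54.7 and 60.0 against 57.5 FPKM in 786-O. Neither passed the test, with limma adjusted p of 0.896 for CDK4 and 0.962 for CCND3.

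The inhibitors CDKN1A, CDKN1B, CDKN2C and CDKN2D had log2 fold changes of 0.03, 0.10, -0.04 and -0.10 with siRNA #1. That of RB1 was 0.07, of E2F1 0.05, of E2F4 -0.0021, of TFDP1 0.02, of CCNE1 0.05, of CDK2 0.02 and of SKP2 0.05. None of these passed the test, with limma adjusted p of 0.583 to 0.993. The 11 genes below the filter included CCND2, CDKN2A and CDKN2B, which were listed at 0 in all libraries. CCNE2, cyclin E2, was below the filter at 5.13 and 5.17 FPKM in the 786-O NTC libraries and 7.25 with siRNA #1, beside 6.93 with siRNA #2.

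**Figure D4:**
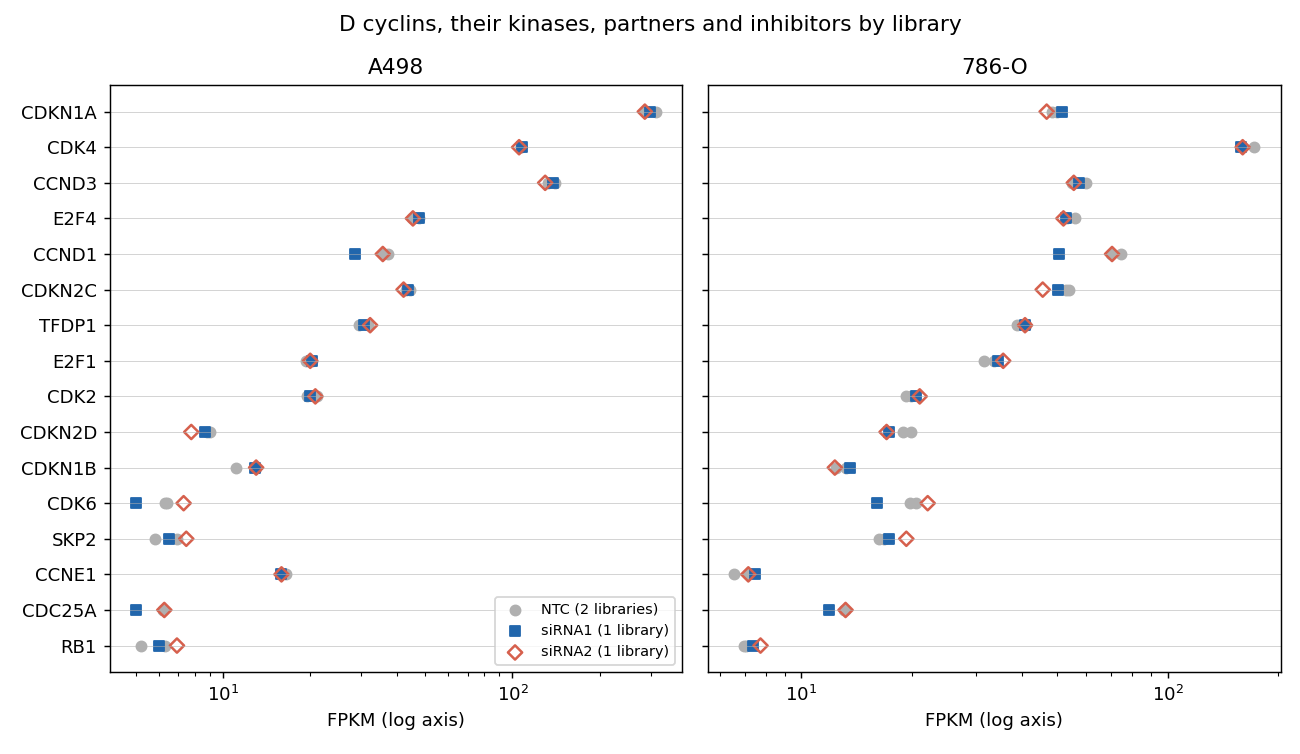
FPKM on a log axis in each library of A498 (left) and 786-O (right) for the 16 tested genes of the list of D cyclins, kinases, partners and inhibitors, ordered by mean level (grey circles NTC, blue squares siRNA #1, open diamonds siRNA #2). In CCND1 and CDK6, the genes called on these same libraries, the blue square lies clearly left of the controls in both lines. The blue squares of CDC25A and CDKN2D also lie left of both controls in each line, but less far.

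Of 21 tested genes of the hypoxia list, CA12, ANGPTL4 and NDRG1 fell and none rose, beside 0.689% lower and 0.110% higher of all genes tested. The list median was -0.024, beside 0.0021 over all genes. CA12, a membrane carbonic anhydrase, was at 98.9 and 105 FPKM in the A498 NTC libraries, 76.6 with siRNA #1 and 97.9 with siRNA #2. The 786-O levels were 37.2 and 36.7, 27.3 and 39.2 FPKM in the same order, with siRNA #1 below both controls. Its log2 fold change was -0.43 (limma adjusted p = 0.00489) and that of siRNA #1 minus siRNA #2 was -0.44 (limma adjusted p = 0.0098). ANGPTL4, a secreted inhibitor of lipoprotein lipase, was at 87.2 and 80.0 FPKM in the A498 NTC libraries, 60.9 with siRNA #1 and 86.6 with siRNA #2. Levels in 786-O were 9.61 and 10.1, 7.75 and 16.0 FPKM, so siRNA #2 stood above the controls where siRNA #1 stood below them. NDRG1, a stress-responsive protein, fell by 0.31 on the log2 scale (limma adjusted p = 0.0279), and its difference between the siRNAs was -0.18 (limma adjusted p = 0.298).

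The lists of cell cycle genes other than D cyclins had no called gene, where limma called 0.689% and 0.110% of all genes lower and higher. The 32 tested S phase genes had a median log2 fold change of -0.065 with siRNA #1, from -0.18 to 0.13, and 0.023 with siRNA #2. The 50 tested G2/M genes had medians of -0.025 and 0.050, and the 19 p53 targets of 0.016 and -0.058. Of 22 NF-kB targets BIRC3 rose, with medians of 0.10 with siRNA #1 and 0.11 with siRNA #2. The 32 tested interferon-stimulated genes had medians of 0.13 and 0.14 and no call. These pairs of medians share their NTC libraries and are given as levels of each siRNA on its own.

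CCND1 was the one called gene of 10 tested ERK feedback and target genes and of 3 tested Wnt targets, beside 0.689% of all genes called lower. No gene was called among 17 YAP and TEAD targets, 14 immediate early genes, 16 TGF-beta targets and SMADs, 6 genes of the RNA interference machinery, 23 genes of the HNRNP family, 22 genes of cholesterol synthesis and uptake, 25 genes of ATF4 and the unfolded protein response and 7 integrin subunits. Their medians with siRNA #1 ran from -0.0007 for the RNA interference machinery to 0.079 for the YAP and TEAD targets. CA12 was also the one called gene of 5 tested renal markers. CD68, which was the one tested marker of other cells, had a log2 fold change of -0.49 and was not called.

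By a rule of size without a test, 38 genes were lower than the NTC mean by at least 20% with siRNA #1 in both lines, and outside both NTC values, which is 0.524% of the genes tested, and 9 were higher by at least 25%, which is 0.124%. These limits are the same fold in each direction, the one the study used. Between the NTC libraries themselves, 139 genes in A498 and 123 in 786-O differed by this fold or more. These counts are for each line alone and either direction, so they are no background for a rule that needs both lines. The median difference between the NTC libraries was 0.102 in A498 and 0.0776 in 786-O on the log2 scale. Of the 38 lower genes, limma called 35. By the 1.1-fold rule siRNA #2 did not move 20 of the 38, CCND1 among them, beside 60.5% of all genes. By the rule of size siRNA #2 shifted 1 of the 38 in the same way, beside 9 lower of all 7252 genes tested. The 1 gene was TM4SF19-DYNLT2B, a read-through transcript named after its values were seen.

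Of the 9 higher genes, limma called 3, TGIF2-RAB5IF, SCML1 and UBD. TDG, the thymine DNA glycosylase, was among those without a call, at 3.17 and 3.62 FPKM in the A498 NTC libraries and 4.45 with siRNA #1, and at 6.24 and 6.07 against 7.99 FPKM in 786-O. With siRNA #2 it was at 4.94 and 8.55 FPKM, above siRNA #1 in both lines, and the limma adjusted p with siRNA #1 was 0.0828. MDP1, a phosphatase, and TMEM64, a membrane protein, had log2 fold changes of 0.39 and 0.34 with siRNA #1 and 0.08 and 0.04 with siRNA #2. SNHG5, a small nucleolar RNA host gene, was at 0.247 and 0.0657 FPKM in the A498 NTC libraries, so its shift there rests on very low values. PPP1R9B was at 12.8 and 0.524 FPKM in the A498 NTC libraries, 14.1 with siRNA #1 and 0.710 with siRNA #2, so its controls differed more than the siRNAs did. INO80B-WBP1, a read-through transcript, had a log2 fold change of 0.63 (SE 0.206).

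The difference of the siRNA #1 effect between the lines was tested as an interaction. limma with Benjamini-Hochberg adjustment called 1 gene, RMRP, and 129 were below p of 0.05 without adjustment. With 1 siRNA #1 library in each line, the test recovered only large differences in simulated data, so the absence of other calls says little. For CCND1 the 786-O effect minus the A498 effect was -0.17 on the log2 scale (SE 0.131, 95% interval -0.45 to 0.11, limma adjusted p = 1.00), an interval that holds effects equal in both lines and effects that differ.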

How the data were processed

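Barcoded libraries were made with an Illumina TruSeq RNA kit, starting from the total RNA of A498 and 786-O cells, and sequenced as single-end reads of 36 bp. Per the labels the authors aligned reads to hg19, and the submitters' processing notes list TopHat2 2.0.0 and Cufflinks 2.0.2. The deposited values are FPKM that Cufflinks estimated for one library at a time, each with a 95% interval. No scaling between libraries is given in the sources used here. Each table holds 75378 entries, of which 43150 are RefSeq transcripts. A RefSeq gene table of GRCh38, used for names only, gave 96.6% of these a symbol, and FPKM were summed per symbol. No counts were used. Genes with a span under 200 bp, 269 of those at or above the FPKM minimum, and genes with a mean under 5 FPKM were left out. Coordinates are those of the files, in hg19.

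Values were tested as log2(FPKM + 0.1) with limma 3.58.1 in R 4.3.3, letting the variance follow mean level (trend = TRUE), two-sided, and p-values were adjusted over all 7252 genes by Benjamini-Hochberg at 0.05. The cell line was a covariate. Fold changes on this scale understate the change of low genes. The contrast of the siRNAs and a fit of siRNA #2 used the same genes. The fits were tested on simulated data. The members, the 19 gene lists and the tests were chosen with earlier results of these data known. Named genes were SLINKY, CCND1, the 12 lower and 12 higher called genes with the lowest p, the 12 lower and 12 higher genes with the largest smaller shift of the 2 lines, called or shifted list members and every tested member of the D cyclin list. Alternatives covered the pseudocount, both filters, the scaling, the variance trend, the libraries entered, a replicate block and each library left out. An alternative without genes that have a failed Cufflinks entry and a crossed replicate block were chosen after seeing the data. Relative depth came from the FPKM worth of 1 read. Intervals cover counting error only. Other steps ran in Python 3.11.15 (pandas 2.3.3, numpy 2.4.6, scipy 1.17.1), with matplotlib 3.10.9 for plots. One called gene is not reported here by name, and no sequence is shown.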

Additional observations from a re-analysis of the deposited data

Results flagged for a closer look

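RMRP, the RNA component of the RNase MRP complex, at chr9:35657748-35658015 of hg19, was flagged because the siRNA #1 effect differed between the cell lines in the interaction test. In A498 it was at 14.0 and 12.5 FPKM in the NTC libraries, 6.87 with siRNA #1 and 7.51 with siRNA #2. In 786-O it was at 4.83 and 4.17 FPKM in the NTC libraries, 42.8 with siRNA #1 and 3.73 with siRNA #2. The effect in 786-O minus that in A498 was 4.16 on the log2 scale (SE 0.168, limma adjusted p = 1.29e-08 with Benjamini-Hochberg adjustment), and it rests on 1 library with siRNA #1 in each line. RMRP has a span just above the minimum of 200 bp.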

How the results depend on the processing

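The 58 genes called with siRNA #1 became 34 at a minimum of 1 FPKM, 32 at 20 FPKM, 13 without a filter on low values (13 higher and none lower, 1626 without adjustment) and 5 without the span filter. Leaving out a library gave 9 to 64 genes, with 9 without the 786-O siRNA #1 library. Of these calls, 28 of the 34, 30 of the 32, 0 of the 13, 2 of the 5 and 7 of the 9 were among the 58. The sign of the lower genes held wherever they were tested, which was all 50 except at 20 FPKM, where 27 were tested. Dropping a library or filter could not turn it, since each of the 50 lay below both controls in both lines. Without the A498 siRNA #1 library, 32 genes were lower and 22 higher. The 53 genes between the siRNAs became 31 at 20 FPKM, 8 without the filter on low values and 5 without the span filter. Leaving out a library gave 0 to 32 genes by limma, with 0 without the 786-O siRNA #1 library (294 without adjustment), 10 without the 786-O siRNA #2 library, 30 without the A498 siRNA #1 library and 32 without the A498 siRNA #2 library. The 4 genes of siRNA #2 became 2 at 20 FPKM and 1 without the filter on low values or on span, and 1 to 5 without a library, the 1 being without the second A498 NTC library. The 1 gene between lines became 3 at a pseudocount of 0.01, 14 at 1 FPKM, 0 at 20 FPKM (42 without adjustment), 297 without the filter on low values and 15 without the span filter. Without 1 NTC library the count was 3 to 19, at 5 and 3 without the first and second A498 library and 19 without either 786-O library. The 47 genes past the fold rule became 98 at 1 FPKM, 17 at 20 FPKM, 278 and 82 without the filters, 7 at 1.5-fold and 421 at 1.1-fold.

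CCND1 stayed at -0.44 without the filter on low values (limma adjusted p = 0.405) or on span (0.122), and ranged from -0.52 to -0.35 without a library. The titles number only the NTC libraries, and siRNA #1 was put with NTC 1. NTC 1 minus NTC 2 had r of -0.255 (Spearman -0.584) between lines across genes, so it tended to opposite signs in the 2 lines. The relative depth of NTC 1 and NTC 2 was 0.821 and 0.567 in A498 and 0.562 and 1 in 786-O. Whether depth bears on this was not tested. Which NTC library goes with each siRNA #1 library is not known. With a replicate block, 13 genes were called, and CCND1 was at -0.45 with a limma adjusted p of 0.0719. With the crossed replicate block, 150 genes were called, 104 lower and 46 higher. Among D cyclin genes near 0, CDK4 was at 0.0035 with the replicate block and E2F4 at 0.0004 after scaling by the median ratio. Without a library, CCND3 ran from -0.0164 to 0.0401, CCNE1 from -0.0289 to 0.126, CDK2 from -0.0247 to 0.0722, CDK4 from -0.0643 to 0.0142, CDKN1A from -0.0016 to 0.0706, CDKN2C from -0.0815 to 0.0027 and E2F4 from -0.0477 to 0.0435. With 1 library per siRNA and line, leaving out a siRNA library leaves 1 library, which is assumed to vary like the others. The cause of these changes was not tested.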
